A study of Mus musculus with 8 samples.

Results

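DNA replication and nucleotide synthesis genes were described in primary mouse articular chondrocytes that received a miR-204 mimic or a control small RNA. The set was a list of 43 genes, chosen by name with earlier results of these data known. Genes were kept where the mean over the 8 libraries was at least 1 FPKM. FPKM counts fragments mapped to a gene, scaled to transcript length and library depth. A total of 42 genes passed, of the 11612 genes that did so among the 24067 in the table. Orc1, which encodes a subunit of the origin recognition complex, fell outside with a mean of 0.851 FPKM, and Cdc6, at 1.07 FPKM, was the lowest that passed. All 43 listed genes were found under their symbols.

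The chondrocytes came from the knee cartilage (femoral condyles and tibial plateaus) of ICR mice aged 5 days and were grown in serum-containing medium at 3% oxygen, in both groups alike. They were exposed for 24 h to 50 nM of the control, named miR-Ctrl, or of miR-204, and collected 24 h later. Each group had 4 libraries, numbered 1 to 4, and RNA was taken at a single time. The labels do not tell whether equal or different numbers stand for separate cultures, litters or animals, or whether animals were pooled, so the p-values speak of the variation among these 8 libraries only, and part or all of it may be technical.

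Eukaryotic replication starts when the origin recognition complex, Cdc6 and Cdt1 load the MCM2-7 helicase onto DNA in G1 phase. Cyclin E with its kinase, and E2F transcription factors, govern the passage into S phase, in which Mcm10, Cdc45 and the GINS complex turn the loaded helicase on. Polymerases then copy both strands behind it, held on DNA by the PCNA clamp and fed by enzymes that make deoxynucleotides. Newborn articular chondrocytes still divide, whereas those of adult cartilage rarely do, and RNA of these genes is most abundant in cycling cells. In such bulk samples a larger share of cycling cells and more RNA per cell cannot be told apart.

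The sequence of the mimic was not given in the labels. The mature mouse miR-204-5p of RefSeq (GRCm38.p6, chr19:22750610-22750631, plus strand, within an intron of Trpm3) is shown because its seed, bases 2 to 8 and in capitals, defines the sites that were searched for.
miR-204-5p: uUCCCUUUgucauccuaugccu

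A site was a match to the seed in a 3′ UTR: AAAGGGAA (8mer), AAAGGGA (7mer-m8), AAGGGAA (7mer-A1) or AAGGGA (6mer). The longest 3′ UTR of each gene in the GENCODE M21 annotation (mm10) was read on its own strand only, and each gene was placed by its best site. The share of genes with a longer site was lower among the replication genes than among all genes, a difference that was not tested, and their 3′ UTRs were also shorter. A 7mer or 8mer was found in 6 of 42 replication genes (14.3%) and in 2687 of 11192 tested genes with a 3′ UTR (24.0%), with median lengths of 550 and 1191 bases. The 8mers were in Mcm6 and Gins3, the 7mer-m8 sites in Cdc6, Rfc2, Rfc5 and E2f1, and 34 of the 42 genes had no site. The 8mers and the E2f1 site are printed with 8 bases on either side and the site in capitals. They show the replication genes with the longest matches and the E2F gene with a match, and each lies in the last exon of its transcript. The Mcm6 site is at chr1:128333397-128333404 (minus strand), that of Gins3 at chr8:95644043-95644050 (plus strand) and that of E2f1 at chr2:154559899-154559905 (minus strand), all in mm10.
Mcm6: attaaccgAAAGGGAAggactttt
Gins3: cccaacacAAAGGGAAagaggtat
E2f1: ttattgggAAAGGGAgagggaga

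The replication genes lay higher with miR-204, by a small amount. Tk1 and Rrm2, of deoxynucleotide supply, and the cyclin gene Ccne1 had the largest fold changes. By role, the medians ran from 0.11 for the DNA polymerases and primase to 0.35 for deoxynucleotide supply, and differences between roles were not tested. The log2(FPKM + 1) scale used here understates changes of low genes, such as Cdc6, Mcm10 and Pole. The median fold change of the 42 genes was 0.21 on the log2(FPKM + 1) scale, miR-204 minus miR-Ctrl, against 0.064 for all tested genes. All 42 lay above 0, from 0.032 (Pold2) to 0.65 (Tk1), where 74.1% of all tested genes did, and 40 did so with centred libraries (median 0.14) and 38 with quantile normalization (0.13). Because the list was chosen with earlier results of these data known, this shared direction is not independent evidence.

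Whether single genes passed depended on the use of the replicate number. Without it, limma called 0 of the 42 genes higher and 0 lower at an adjusted p below 0.05, where 0.0258% of all tested genes were called higher and 0.181% lower. At an unadjusted p below 0.05, 12 of the 42 were higher and 0 lower, and 6.57% of all tested genes were higher. With the number as a block (the paired fit), 20 of the 42 rose, 0 fell and 22 were not called, where 12.4% of all tested genes rose and 2.83% fell. When each library was also centred on its median gene, 10 of those 20 were called (4.99% of all tested genes), and under quantile normalization 11 were (4.78% of all tested genes higher and 4.62% lower). None of the 42 fell in either. The 10 were Cdt1, Mcm5, Gins2, Rpa1, Fen1, Rrm1, Rrm2, Tk1, Dut and Ccne1, and the 11 were these and Pcna. The median standard error of the 42 genes was 0.14 without the block and 0.054 with it, against 0.098 and 0.050 over all tested genes. Without the block the spread of the replication genes was thus above that of the typical gene, and with it nearly the same.

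Values below are given as FPKM in replicates 1 to 4 and as mean ± SD (n = 4 per group), and intervals are 95% intervals of the paired fit. "Rose" and "fell" are used for genes called in the paired fit, and none of the replication genes passed without the block. Every count of genes that rose in a role is to be read beside the 12.4% of all tested genes that rose. With centred libraries that share was 4.99%.

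**Figure D1:**
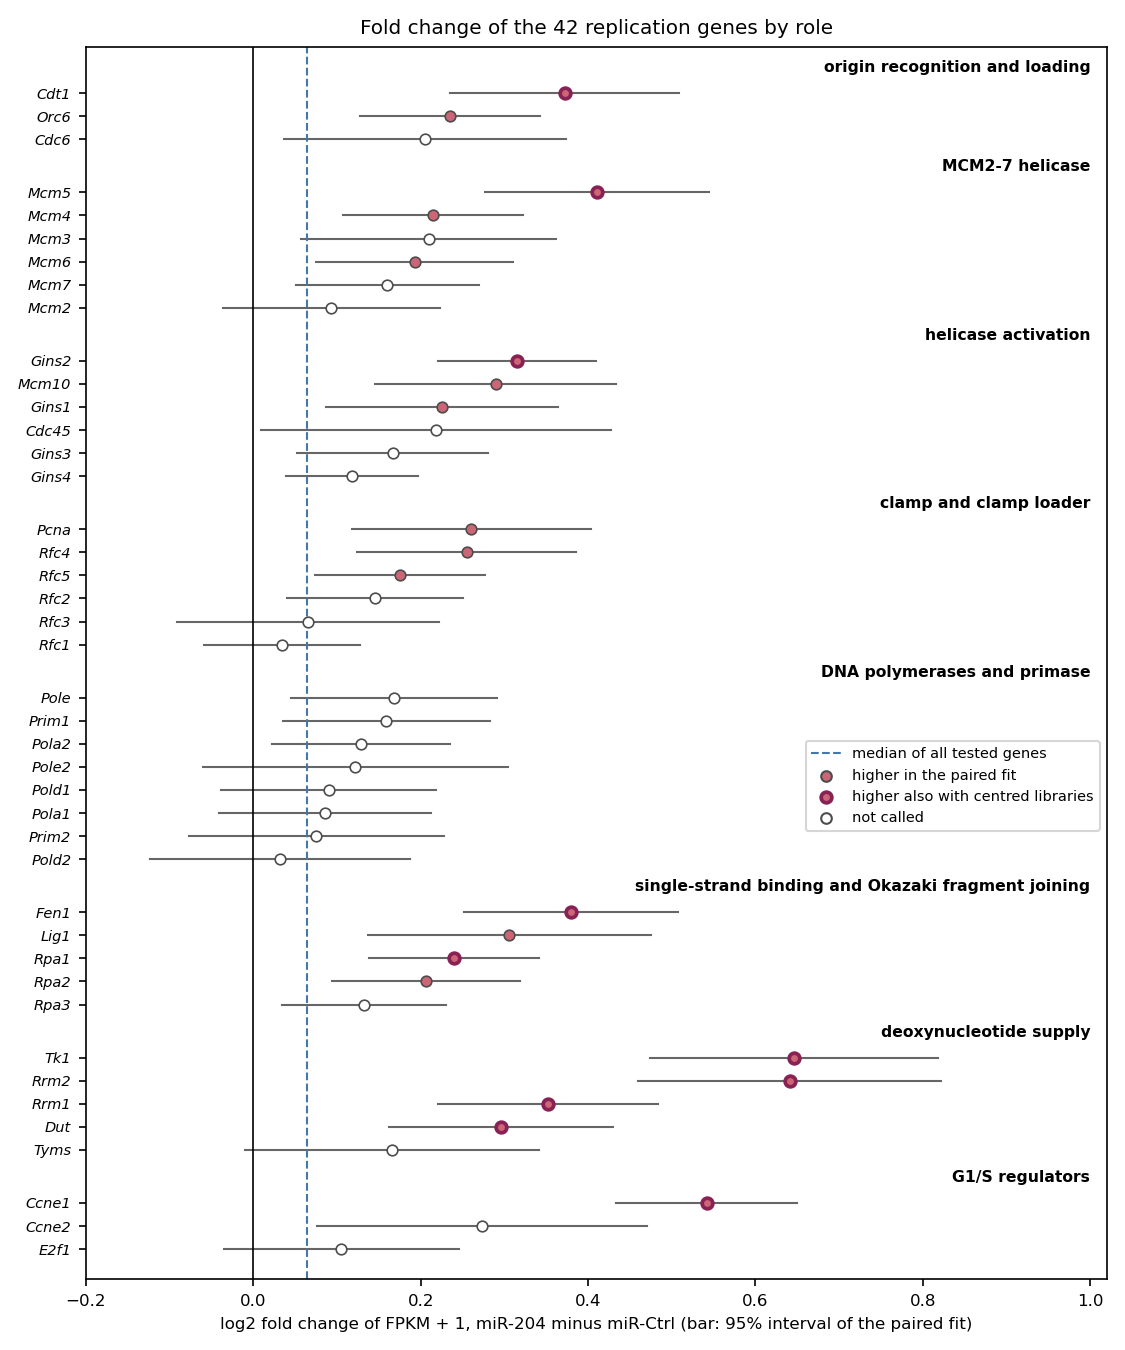
Log2 fold change of FPKM + 1 (x axis, miR-204 minus miR-Ctrl) of the 42 replication genes, grouped by role; bars are 95% intervals of the paired fit, filled points were called in it, thick outlines were called also with centred libraries, and the dashed line is the median of all tested genes. Every point lies right of 0, from 0.032 for Pold2 to 0.65 for Tk1, and the 8 polymerase and primase genes are all open.

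Among the 3 tested genes of origin recognition and loading, Cdt1 and Orc6 rose and Cdc6 was not called. Cdt1, which brings the MCM helicase to origins, stood at 6.46, 5.12, 3.78 and 5.17 FPKM with miR-Ctrl and at 8.16, 6.20, 5.85 and 7.37 with miR-204. It was higher with miR-204 in all 4 pairs, although the groups overlapped, since miR-Ctrl replicate 1 exceeded miR-204 replicates 2 and 3. The means were 5.13 ± 1.09 and 6.89 ± 1.06, with a fold change of 0.37 (interval 0.24 to 0.51, limma paired adjusted p = 0.0141, unpaired 0.531). Orc6, a subunit of the origin recognition complex, stood at 9.64, 7.11, 7.70 and 9.87 FPKM with miR-Ctrl and at 10.6, 9.08, 9.63 and 11.6 with miR-204. Each pair differed in the same direction, and the overlap came from miR-Ctrl replicates 1 and 4. Its fold change was 0.23 (limma paired adjusted p = 0.0229, unpaired 0.639, and 0.0667 paired with centred libraries). Cdc6, the loading ATPase, had a fold change of 0.21 (limma paired adjusted p = 0.0910) at levels of 0.588 to 1.66 FPKM.

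The 6 genes of the MCM2-7 helicase, whose products form a ring of 1 copy each, did not move by equal amounts. Their fold changes ran from 0.093 (Mcm2) to 0.41 (Mcm5), with a median of 0.20, and 3 rose in the paired fit: Mcm4, Mcm5 and Mcm6. Mcm5 stood at 6.86, 4.40, 4.24 and 5.81 FPKM with miR-Ctrl and at 8.89, 5.55, 6.63 and 8.60 with miR-204. All 4 pairs were higher, by 0.33, 0.28, 0.54 and 0.49, while miR-Ctrl replicate 1 lay above miR-204 replicates 2 and 3. Its fold change was 0.41 (interval 0.28 to 0.54, limma paired adjusted p = 0.0108, unpaired 0.575). Mcm7, the most abundant of the 6, stood at 20.6, 17.9, 15.2 and 18.6 FPKM and at 21.1, 20.5, 18.2 and 21.2. It was higher in every pair, least in pair 1, and was not called (0.16, limma paired adjusted p = 0.0604).

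Mcm2 was nearest to 0 among the 6. It stood at 18.7, 10.8, 12.8 and 16.0 FPKM with miR-Ctrl and at 17.8, 11.9, 15.1 and 17.1 with miR-204. Pair 1 was lower with miR-204 and the other 3 pairs were higher, and the groups covered nearly the same range. The means were 14.6 ± 3.49 and 15.5 ± 2.64, with a fold change of 0.093 (interval -0.036 to 0.22, limma paired adjusted p = 0.262), which turned to -0.030 without miR-Ctrl replicate 2. The difference in fold change between Mcm5 and Mcm2 was not tested. Mcm6, which carries the 8mer printed above, had a fold change of 0.19 (limma paired adjusted p = 0.0469, and 0.122 with centred libraries). Mcm4 had 0.21 (0.0293, and 0.0657 with centred libraries).

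Of the 6 genes of helicase activation, Gins1, Gins2 and Mcm10 rose, and 5 of the 6 were higher in all 4 pairs. With centred libraries Gins1 and Mcm10 were not called (limma paired adjusted p = 0.115 and 0.0566). Gins2, a GINS subunit, stood at 8.94, 6.97, 6.02 and 8.02 FPKM with miR-Ctrl and at 11.3, 8.68, 8.27 and 9.89 with miR-204. The pair differences, 0.31, 0.28, 0.40 and 0.27, were close to each other, and the groups overlapped through miR-Ctrl replicate 1. The means were 7.48 ± 1.27 and 9.53 ± 1.35, with a fold change of 0.32 (interval 0.22 to 0.41, limma paired adjusted p = 0.00893, unpaired 0.551). Gins4, another subunit and the most abundant of these genes, stood at 14.8, 13.0, 12.8 and 12.8 FPKM and at 15.9, 14.3, 14.1 and 13.9. Its pair differences were smaller, between 0.099 and 0.13, and it was not called (0.12, limma paired adjusted p = 0.0587). Gins3, which carries the other 8mer, had a fold change of 0.17 (0.0610), and Cdc45, a partner of the active helicase, had 0.22 with a lower value in pair 2 (0.128).

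Paired calls were split over the sliding clamp and its loader. Pcna, which encodes the clamp, had the highest level of all 42 genes, at 61.2, 50.8, 38.4 and 44.9 FPKM with miR-Ctrl and at 70.4, 53.8, 50.6 and 58.4 with miR-204. Every pair was higher, least in pair 2 (0.083), and the groups overlapped widely. The means were 48.8 ± 9.66 and 58.3 ± 8.70, with a fold change of 0.26 (interval 0.12 to 0.40, limma paired adjusted p = 0.0362, unpaired 0.686), and Pcna was not called with centred libraries (0.0645). Of the 5 subunits of the loader, replication factor C, Rfc4 (0.25) and Rfc5 (0.18) rose, and Rfc2 (0.15), Rfc3 (0.066) and Rfc1 (0.034) were not called. With centred libraries Rfc4 and Rfc5 were not called either (limma paired adjusted p = 0.0653 and 0.135), and differences between the subunits were not tested.

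Rfc2, Rfc4 and Rpa1 were the 3 of 42 genes whose groups did not overlap, all higher with miR-204, as for 4.32% of all tested genes. Rfc4 lay between 5.18 and 5.85 FPKM with miR-Ctrl and between 5.96 and 7.45 with miR-204. Rfc2 lay between 14.0 and 15.0 and between 15.4 and 16.7, a smaller but separate step. Both had a narrower spread between replicates than most of the other replication genes, and neither passed without the block (limma unpaired adjusted p = 0.374 for Rfc4 and 0.472 for Rfc2).

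None of the 8 genes of the DNA polymerases and primase was called, paired or unpaired, and by limma 0 of the 8 had an unadjusted unpaired p below 0.05. Of all tested genes, 12.4% rose and 2.83% fell in the paired fit, and 6.57% were higher at that unadjusted p. With 8 genes, a count of 0 is not far from these shares. Their median fold change was 0.11, and it was 0.042 with centred libraries. Pold2, the accessory subunit of polymerase delta and the most abundant of the 8, stood at 11.5, 12.6, 11.4 and 11.6 FPKM with miR-Ctrl and at 12.3, 10.9, 13.2 and 11.9 with miR-204. Replicate 2 held the highest value of miR-Ctrl and the lowest of miR-204, and the other 3 pairs were higher with miR-204. The fold change was 0.032 (interval -0.12 to 0.19, limma paired adjusted p = 0.760) and was -0.032 with centred libraries, so its direction depended on the scaling. Pole, the catalytic subunit of polymerase epsilon, stood at 1.85, 1.24, 1.20 and 1.78 FPKM and at 2.09, 1.55, 1.47 and 2.198. It was higher in all 4 pairs and had the largest fold change of the 8, at 0.17 (limma paired adjusted p = 0.0714).

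The other polymerase and primase genes lay between. Prim1, the catalytic primase subunit, had a fold change of 0.16, and Pola2, the accessory subunit of polymerase alpha, had 0.13. Pole2 had 0.12, Pold1 0.090, Pola1 0.086 and Prim2 0.075. Pole, Pola2 and Prim1 were the 3 of 8 genes that were higher in all 4 pairs.

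Genes of single-strand binding and of Okazaki fragment joining rose in 4 of 5 cases, where 12.4% of all tested genes rose. With centred libraries 2 of the 5 were called, Rpa1 and Fen1, where 4.99% of all tested genes were called higher. Fen1, the flap nuclease that trims Okazaki fragments, stood at 8.26, 5.71, 5.84 and 6.30 FPKM with miR-Ctrl and at 10.0, 7.94, 7.56 and 9.53 with miR-204. Only miR-Ctrl replicate 1 reached into the range of miR-204. The means were 6.53 ± 1.18 and 8.77 ± 1.21, with a fold change of 0.38 (interval 0.25 to 0.51, limma paired adjusted p = 0.0116, unpaired 0.452). Lig1, the ligase that seals the fragments, rose by 0.31 (0.0370, and 0.0643 with centred libraries). Rpa1 (0.24, limma paired adjusted p = 0.0193) and Rpa2 (0.21, 0.0360, and 0.124 with centred libraries), the larger subunits of the single-strand binding protein RPA, also rose. Rpa3, the smallest subunit and the most abundant of the 5, stood at 26.7, 23.1, 27.5 and 24.96 FPKM and at 28.3, 24.8, 32.7 and 26.9. It was higher in every pair without being called (0.13, limma paired adjusted p = 0.0735).

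Deoxynucleotide supply had the largest median fold change of the 8 roles, 0.35. In it 4 of 5 genes rose without and with centring, against 12.4% and 4.99% of all tested genes. Tk1, thymidine kinase of the salvage route, stood at 9.92, 6.02, 5.26 and 9.46 FPKM with miR-Ctrl and at 14.6, 8.66, 9.82 and 17.4 with miR-204. In both groups replicates 1 and 4 were high and replicates 2 and 3 low, so that the groups overlapped although each pair differed by 0.46 to 0.82. The means were 7.66 ± 2.36 and 12.6 ± 4.11, with a fold change of 0.65 (interval 0.47 to 0.82, limma paired adjusted p = 0.00676, unpaired 0.538).

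Rrm2, the small subunit of ribonucleotide reductase, followed the same order of libraries. It stood at 19.96, 12.9, 10.0 and 17.5 FPKM with miR-Ctrl and at 28.2, 18.1, 18.6 and 31.1 with miR-204, and the pairs differed by 0.48, 0.46, 0.83 and 0.80. Its fold change was 0.64, with a standard error of 0.25 without the block and 0.075 with it (limma paired adjusted p = 0.00761, unpaired 0.523). Rrm1, the large subunit of the same enzyme, rose by 0.35 (0.0149), and Dut, the phosphatase that keeps uracil out of DNA, rose by 0.30 (0.0223). Tyms, thymidylate synthase of the de novo route, was the member not called (0.17, limma paired adjusted p = 0.160), and it was lower with miR-204 in pair 1.

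**Figure D2:**
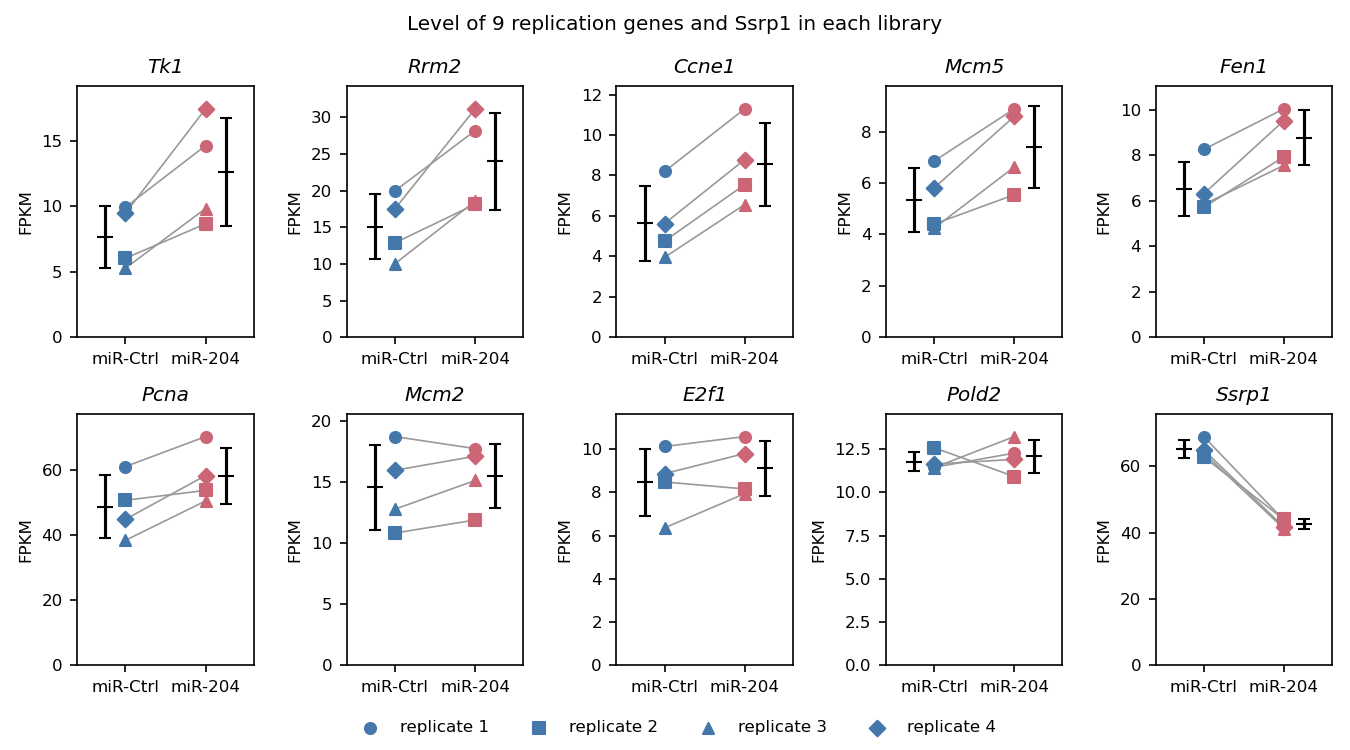
FPKM (y axis, from 0) in each library of miR-Ctrl and miR-204 for 9 replication genes and for Ssrp1; lines join libraries of equal replicate number, symbols mark the number and black bars are mean ± SD (n = 4). Tk1, Rrm2, Ccne1, Mcm5, Fen1 and Pcna go up along all 4 lines while the groups overlap. Mcm2 (replicate 1), E2f1 and Pold2 (replicate 2) have a line that goes down. Ssrp1 lies between 62.9 and 69.0 with miR-Ctrl and between 41.2 and 44.0 with miR-204.

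The regulators of entry into S phase differed from each other. Ccne1, which encodes cyclin E1, stood at 8.20, 4.75, 3.95 and 5.62 FPKM with miR-Ctrl and at 11.3, 7.55, 6.56 and 8.79 with miR-204. The pairs differed by 0.42, 0.57, 0.61 and 0.56, and miR-Ctrl replicate 1 alone lay inside the range of miR-204. The means were 5.63 ± 1.84 and 8.55 ± 2.04, with a fold change of 0.54 (interval 0.43 to 0.65, limma paired adjusted p = 0.00367, unpaired 0.531). Ccne2, the other cyclin E gene, had a fold change of 0.27 and was not called (0.0687).

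E2f1, a transcription factor that drives many replication genes, stood at 10.1, 8.48, 6.36 and 8.87 FPKM with miR-Ctrl and at 10.6, 8.16, 7.94 and 9.80 with miR-204. Pair 2 was lower with miR-204 and the other 3 pairs were higher, and the ranges overlapped, with miR-Ctrl replicate 3 alone below every miR-204 library. The means were 8.46 ± 1.57 and 9.12 ± 1.28, with a fold change of 0.11 (interval -0.035 to 0.25, limma paired adjusted p = 0.246), which turned to -0.011 without miR-Ctrl replicate 3.

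Within equal replicate numbers the whole set leaned the same way, with unequal size. The median difference of the 42 genes was 0.14 in pair 1, 0.12 in pair 2, 0.30 in pair 3 and 0.24 in pair 4, and 37, 35, 42 and 41 of them lay above 0. All tested genes had medians of 0.052, 0.044, 0.097 and 0.069 in the same pairs. A total of 31 of the 42 genes were higher in all 4 pairs, as were 33.9% of all tested genes.

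**Figure D3:**
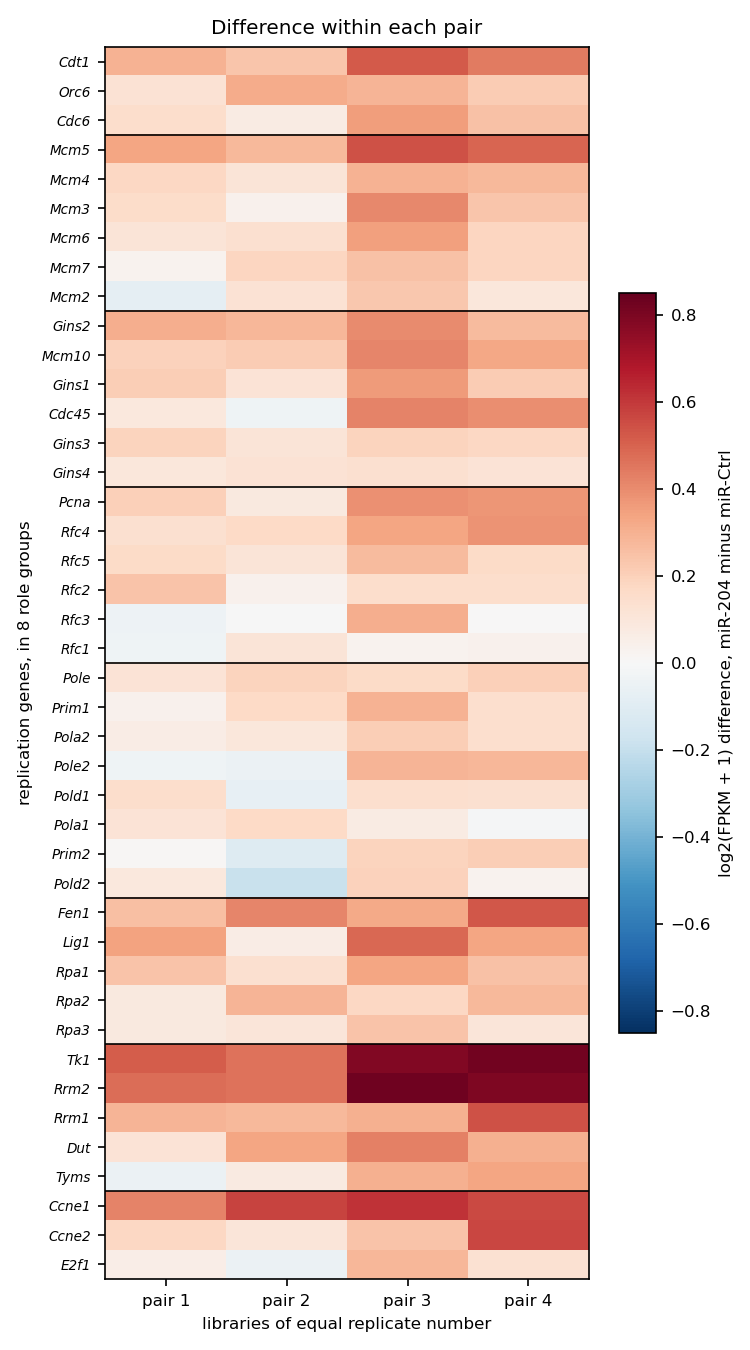
Difference in log2(FPKM + 1), miR-204 minus miR-Ctrl, within each of the 4 pairs of equal replicate number (columns) for the 42 replication genes (lines of the map, in 8 role groups; red is higher with miR-204). Pairs 3 and 4 are redder than pairs 1 and 2, with medians of 0.30 and 0.24 against 0.14 and 0.12, and Tk1, Rrm2 and Ccne1 are red in every column.

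Levels of these genes also differed between replicate numbers. Their summed level was 455, 356, 326 and 391 FPKM in miR-Ctrl replicates 1 to 4 and 516, 399, 419 and 487 FPKM with miR-204. Each sum was higher with miR-204 than in the control of equal number, but miR-Ctrl replicate 1 exceeded miR-204 replicates 2 and 3. Leaving out a pair moved the paired calls: 3 of the 42 rose without pair 1 (Rrm2, Tk1 and Ccne1), 26 without pair 2, 6 without pair 3 (Mcm5, Gins2, Fen1, Rrm2, Tk1 and Ccne1) and 1 without pair 4 (Ccne1). Ccne1 was therefore called in 4 of these 4 fits, and Rrm2 and Tk1 in 3. The 26 held all 20 genes called with 4 pairs. Counts over all 11612 tested genes moved in the same order, with 89, 2781, 236 and 42 called higher without pair 1, 2, 3 or 4.

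The replicate 2 libraries, whose removal raised the count, stood apart in several ways. Their depth relative to miR-Ctrl replicate 1 was 0.774 and 0.796, and that of the other 5 libraries was 0.927 to 0.959. Their summed FPKM was 490818 and 483721 against 416560 to 452710, and a first principal component with 58.4% of the variance over genes set them apart from the rest. Mmp13, a collagenase gene, was at 1628 and 908 FPKM in them and between 3.66 and 54.8 elsewhere. The part of these features in the paired counts was not tested.

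The replication genes with a miR-204 site lay on the same side as the others. The 6 genes with a 7mer or 8mer had fold changes between 0.11 and 0.21, with a median of 0.17, and 2 of them rose (Mcm6 and Rfc5). The 34 genes with no site had a median of 0.22, and 17 rose, where 12.4% of all tested genes rose. With centred libraries 0 of the 6 and 9 of the 34 were called higher, against 4.99% of all tested genes. Over all tested genes the medians were -0.0054 with an 8mer, 0.026 with a 7mer-m8 and 0.078 with no site. Mcm6 and Gins3, at 0.19 and 0.17, were thus above the median of all genes with an 8mer.

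Promoters were compared because many of these genes moved together. Windows from 250 bases before to 50 after the start (RefSeq, GRCm38.p6) were matched for 34 of the 42 genes. They were searched on both strands for 4 words of the E2F site, TTTCCCGC, TTTGGCGC, TTTCGCGC and TTTGCCGC, which can overlap each other. At least 1 word was found for 12 of 34 replication genes with a window (35.3%) and for 454 of 9272 tested genes with a window (4.90%). A gene with several windows was counted once. Windows of up to 30 bases show the word in capitals, on the strand of the gene, for genes that differed in fold change. The word shown for Mcm5 is at chr8:75109360-75109367 (plus strand, -149 from the start), that for Cdt1 at chr8:122568047-122568054 (plus strand), and that for Mcm7 at chr5:138171860-138171867 (minus strand). Mcm5 and Mcm7 each hold another word: TTTCGCGC, overlapping the one shown, in Mcm5 (chr8:75109356-75109363) and TTTCCCGC, on the opposite strand, in Mcm7 (chr5:138172041-138172048).
Mcm5: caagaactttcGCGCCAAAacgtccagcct
Cdt1: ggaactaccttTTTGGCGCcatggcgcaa
Mcm7: gggtgacgacgTTTCGCGCcaatttcggtt

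Genes that rose were found with and without the word. The 12 with a word had a median of 0.18, and 4 rose (Cdt1, Mcm5, Mcm6 and Lig1). The 22 with a window and no word had a median of 0.23, and 13 rose, among them Tk1, Rrm2 and Ccne1. Of all tested genes, 12.4% rose. With centred libraries 2 of the 12 and 7 of the 22 were called higher, against 4.99% of all tested genes. The word TTTGAA is known as the CHR element of late cell cycle genes. It was found for 14.7% of the replication genes and 14.0% of all tested genes with a window. A CCAAT box (CCAAT) was in 58.8% and 43.1%, and a GC box (GGGCGG) in 76.5% and 71.1%. A match is a description of these letters and not a bound site.

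Genes around the replication fork and the nucleotide pathways were read from 6 further lists, of which 98 of 103 genes were tested. Without the block, limma called 0 higher and 1 lower (9 and 1 at an unadjusted p below 0.05), and in the paired fit 39 rose and 2 fell, where 12.4% of all tested genes rose and 2.83% fell. The 39 became 8, 44, 12 and 0 without pair 1, 2, 3 or 4, where 89, 2781, 236 and 42 of all 11612 tested genes were higher. Among 23 other fork and origin genes the median was 0.091 and 6 rose. They included Gmnn (0.44, limma paired adjusted p = 0.00676), which restrains Cdt1, Dbf4 (0.39, 0.0167), the activator of the Cdc7 kinase, and Clspn (0.36, 0.0290), a checkpoint mediator at the fork. Of 12 purine synthesis genes, Prps2 (0.32, 0.00997), Prps1 (0.23, 0.0163) and Paics (0.20, 0.0193) rose and the median was 0.045. None of 18 other pyrimidine and folate genes was called in the paired fit (median 0.049, and by limma 0 at an unadjusted unpaired p below 0.05). The 2 most abundant of these were the nucleoside diphosphate kinase gene Nme2 (0.022) and the folate enzyme gene Shmt2 (0.042), and both turned to below 0 with centred libraries.

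Ssrp1, a subunit of the histone chaperone FACT that works at forks and in transcription, moved against its neighbours. It stood at 69.0, 62.9, 64.0 and 65.0 FPKM with miR-Ctrl and at 43.7, 44.0, 41.2 and 41.7 with miR-204. The groups did not overlap, as for 1.58% of all tested genes in the lower direction. The means were 65.2 ± 2.66 and 42.6 ± 1.43, with a fold change of -0.60, and the gene fell with and without the block (limma adjusted p = 0.00238 paired, 0.0108 unpaired). The unpaired call was lost, at adjusted p = 0.0554 to 0.0791, without any one of miR-Ctrl replicates 1 or 4 or miR-204 replicates 1, 3 or 4. Of 776 tested genes with an 8mer, 136 fell and 31 rose in the paired fit. Among the further lists, 8mers were also in Gmps (purine synthesis) and Mad2l1 (mitosis), neither of which fell, and in Rbl2. The 3′ UTR of Ssrp1 holds an 8mer, at chr2:85047089-85047096 (mm10, plus strand, last exon), printed with the site in capitals.
Ssrp1: aatttaatAAAGGGAAatgacttt

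The other 7 genes of replication-coupled chromatin lay above 0. Asf1b, a histone chaperone gene, rose by 0.45 (limma paired adjusted p = 0.00614), and Chaf1b, of chromatin assembly factor 1, rose by 0.38 (0.0339, and 0.0535 with centred libraries). Supt16, which encodes the partner of Ssrp1 in FACT and was named after its values were seen, had a fold change of 0.085 (0.144). Among 14 tested genes of the E2F and pocket protein system, 4 rose and Rbl2 fell, where 12.4% of all tested genes rose and 2.83% fell. With centred libraries 1 was called higher and 1 lower (4.99% and 4.32% of all tested genes). Without pair 1, 2, 3 or 4 the paired fit called 0, 4, 1 and 0 of them higher and 0, 1, 0 and 0 lower. Of all 11612 tested genes, 89, 2781, 236 and 42 were higher in these fits. Ccna2, cyclin A2, had 0.45 (0.0366) and E2f8, a repressive E2F, had 0.42 (0.0132). Rbl2, which encodes the pocket protein p130, stood at 6.25, 6.94, 4.65 and 6.04 FPKM with miR-Ctrl and at 5.14, 5.25, 4.09 and 4.86 with miR-204. It was lower in each pair while the groups overlapped through miR-Ctrl replicate 3, with a fold change of -0.25 (limma paired adjusted p = 0.0204, unpaired 0.607). Its 3′ UTR holds an 8mer at chr8:91122559-91122566 (mm10, plus strand, last exon).
Rbl2: aggggataAAAGGGAAgcgcttct

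Mitosis genes, which act later in the cycle, had larger fold changes than the replication genes. All 23 lay above 0, from 0.28 to 0.63 with a median of 0.42, and 22 rose in the paired fit and 16 with centred libraries (12.4% and 4.99% of all tested genes). Without the block, limma called 0 of the 23, and 2 were higher at an unadjusted p below 0.05 (6.57% of all tested genes). Their median standard error was then 0.23, against 0.14 for the replication genes. Without pair 1, 2, 3 or 4 the paired fit called 6, 22, 8 and 0 of the 23. Of all 11612 tested genes, the same fits called 89, 2781, 236 and 42 higher. A 7mer or 8mer was in 4 of the 23 (17.4%), among them Mad2l1 and Ube2c. Cenpa, the centromeric histone, had 0.63 (limma paired adjusted p = 0.0125), Ube2c, a ubiquitin-conjugating enzyme of mitotic exit, 0.57 (0.0379) and Birc5, survivin, 0.56 (0.0141). The median differences in pairs 1 to 4 were 0.23, 0.37, 0.65 and 0.43, each above that of the replication genes. Their order over libraries was another one as well. Mitosis genes summed to 109, 85.3, 69.1 and 155 FPKM with miR-Ctrl and to 135, 117, 133 and 226 with miR-204, highest in replicate 4 of both groups, whereas the replication genes were highest in replicate 1. The windows also differed in letters: the CHR word was found for 14 of 21 mitosis genes with a window (66.7%) and an E2F word for 1 (4.76%). The difference between the lists was not tested, and both hold genes picked with results of these libraries known.

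**Figure D4:**
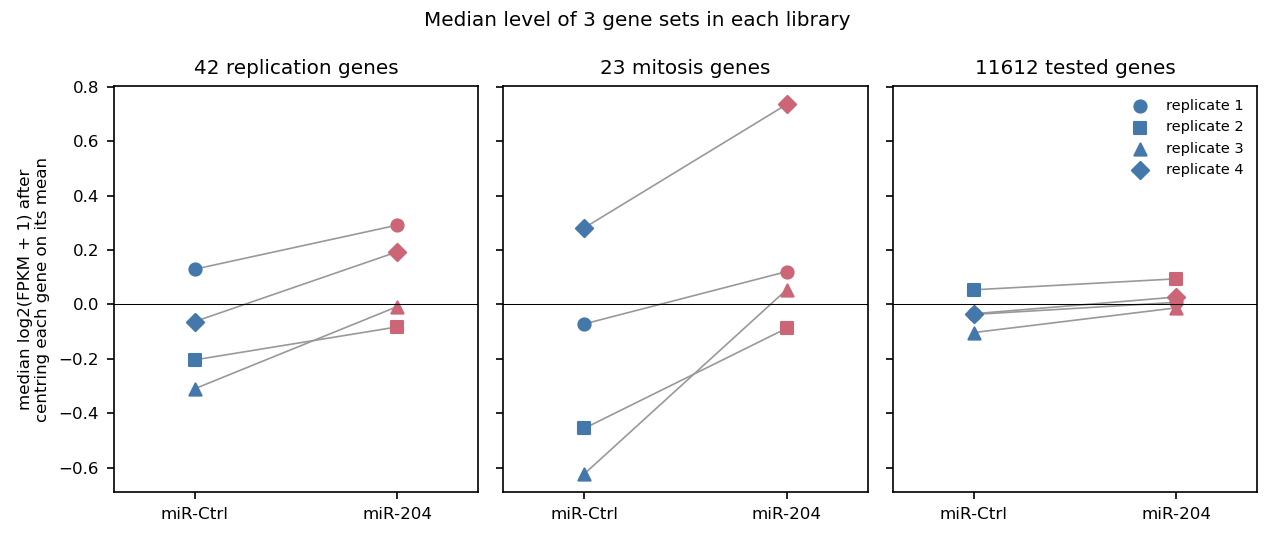
Median over the genes of a set of log2(FPKM + 1), after centring each gene on its mean over the 8 libraries (y axis), for the 42 replication genes, the 23 mitosis genes and all 11612 tested genes; lines join libraries of equal replicate number. The replication genes run from -0.31 in miR-Ctrl replicate 3 to 0.29 in miR-204 replicate 1, every line goes up, and the lines of all tested genes rise far less.

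The labelled cell type was checked against markers. All 10 chondrocyte markers had a mean of at least 1 FPKM and summed to 11722 to 39090 FPKM with miR-Ctrl and 11749 to 31009 with miR-204. Of 5 endothelial and 5 erythroid markers 0 reached 1 FPKM, and of 7 fibroblast and synovial markers 6 did (sums of 1567 to 3324 and 1512 to 3479 FPKM). Of 6 macrophage and leukocyte markers found, 3 reached it (sums of 4.22 to 21.7 and 10.2 to 22.1), with Ptprc, Csf1r and Itgam below it. Of 4 osteoclast markers 2 did (sums of 9.58 to 34.3 and 14.8 to 44.5). Of 7 smooth muscle and pericyte markers 4 reached it, and the sum was 142 to 183 FPKM with miR-Ctrl and 244 to 346 with miR-204, mostly from Acta2 and Tagln, while Myh11, Rgs5 and Notch3 stayed below 1 FPKM on average. Markers of 5 of these classes were called in the paired fit, where 12.4% of all tested genes rose and 2.83% fell. Of the tested markers, 3 of 4 of smooth muscle rose (Acta2, Tagln and Mcam), as did 2 of 2 of osteoclasts, Acp5 and Ctsk. Acp5 rose by 0.56 (limma paired adjusted p = 0.00893) and Ctsk by 0.25 (0.0362, and 0.0829 with centred libraries). Cd68, 1 of 3 macrophage markers, rose from 1.51 ± 0.759 to 3.93 ± 0.979 FPKM (0.00997). Its groups did not overlap, as for 4.32% of all tested genes in the higher direction. Thy1, 1 of 6 fibroblast markers, rose by 0.42 (0.0330). Of the 10 chondrocyte markers, Hapln1, the cartilage link protein gene (-1.04, 0.00136), and Comp (-0.17, 0.0401) fell. Of all these, Acta2 alone passed without the block (limma unpaired adjusted p = 0.0242). The part of these markers in the difference of the replication genes was not tested.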

How the data were processed

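The deposited table held FPKM values made by the authors, 1 per gene and library. Its making involved TopHat, Cufflinks 2.2.1 and mm10, per the submitters' processing notes. Read totals were not at hand, and relative depth came from the steps between low FPKM values. FPKM is scaled by library and length, so a few abundant genes can shift all others, and near-identical genes may share reads.

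Members and gene lists were chosen with earlier results of these data known. Fits used limma 3.58.1 (R 4.3.3, trended prior, two-sided) on log2(FPKM + 1) of genes averaging 1 FPKM or more, with Benjamini-Hochberg adjustment over all 11612 genes at 0.05, first without and then with the replicate number as a block. Every adjusted p is from limma. On the log2(FPKM + 1) scale changes of low genes are understated. Libraries of equal number deviated from their group means together (r = 0.44, 0.82, 0.76 and 0.62 across genes), and 8 of 8 libraries correlated best with their own number. The numbers therefore pair the samples, by the data and not by the labels. Tested on simulated data of the same comparison (11612 genes, 100 changed at each size), the unpaired fit recovered 52% of 1.5-fold and 78% of 2-fold changes with 0 unchanged genes called, and the paired fit 89% and 98% with 6. The simulated noise was drawn separately for each gene and library, with the spread of the paired fit, around the replicate effects of the real libraries. It held no other shift common to the genes of a library, so the 6 calls do not measure errors from such shifts.

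Named with values in each library were, per role, the gene of highest mean and that of largest absolute fold change, with Pcna, Rrm2, Mcm2, Ccne1 and E2f1, and per further list up to 3 paired calls of largest absolute fold change or, with none, the 2 of highest mean. Other members are given by fold change. Alternatives were the block, a pseudocount of 0.1, no filter or 5 FPKM, centred or quantile-normalized libraries and leaving out libraries or pairs. Centred libraries without 1 pair were added after seeing the data. Sequences came from GENCODE M21 and RefSeq (GRCm38.p6) and were searched with Python 3.11.15.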

Additional observations from a re-analysis of the deposited data

Results flagged for a closer look

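The 42 replication genes gave 84 groups of 4 libraries, and in 3 of them 1 library stood apart, its gap to the nearest of the others, as a share of the group's range, being above Dixon's critical value. Chance gives about 1 in 20 such groups. Gins4 was at 14.8 FPKM in miR-Ctrl replicate 1, where the next library was at 13.0 (0.862 of the range). Pole2, a subunit of polymerase epsilon, was at 5.55 FPKM in miR-Ctrl replicate 1, where the next was at 3.66 (0.900). Tyms was at 4.77 FPKM in miR-204 replicate 3, below the next library at 5.65 (0.886). None of these 3 genes was called in the paired fit.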

How the results depend on the processing

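The replicate block moved most of the counts. Against 0 unpaired, 20 replication genes rose in the paired fit with 4 pairs (19 with a pseudocount of 0.1, 10 with centred libraries, 11 with quantile normalization). All genes called higher numbered 3 unpaired and 1436 paired (1434, 579 and 555 in the same order), and all genes called lower 21 and 329 (332, 502 and 536). Unpaired with no filter, centred libraries or quantile normalization, 0, 8 and 7 were higher and 9, 55 and 66 lower. In the 6 further lists the paired fits called 39 higher and 2 lower (38, 24 and 22, and 2, 2 and 3).

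Leaving out 1 library or pair gave, unpaired, 0 to 4 genes higher and 0 to 16 lower. The paired fit without pair 1, 2, 3 or 4 called 89, 2781, 236 and 42 higher and 83, 522, 149 and 48 lower, and with centred libraries 86, 1271, 125 and 61 higher and 143, 1027, 197 and 111 lower. Of the replication genes 3, 26, 6 and 1 rose, and 3, 14, 3 and 3 with centred libraries. Of the further lists 8, 44, 12 and 0 rose and 1, 6, 1 and 1 fell (centred: 10, 24, 7 and 0, and 1, 8, 2 and 1), with 0 to 1 lower unpaired. The median of the replication genes stayed above 0, from 0.10 to 0.28, lowest in centred paired fits without pair 3 (0.10) or pair 4 (0.12).

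Directions turned in 5 of 33 named genes, and none of the 5 was called with 4 pairs. With centred libraries and with quantile normalization, with or without the block, Pold2 was at -0.032 and -0.035, Nme2 at -0.042 and -0.034, and Shmt2 at -0.023 and -0.031. With libraries or pairs left out, Mcm2 reached from -0.030 to 0.22 (-0.0062 in the centred paired fit without pair 3) and E2f1 from -0.011 to 0.19 (-0.0085 in the same fit). Pold2 reached 0.11, and its values below 0 were -0.0092, -0.022, -0.054, -0.077 and -0.029. Nme2 reached 0.071, with -0.0037, -0.010, -0.017, -0.053, -0.065 and -0.033. Shmt2 reached 0.13, with -0.023, -0.021, -0.0067, -0.076 and -0.038. Ssrp1 alone among the named genes lost an unpaired call, in 8 such fits. The cause was not tested. FPKM without read totals gives no counting error, and the lower depth of both replicate 2 libraries limits genes near 1 FPKM, such as Cdc6.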
